A study of Mus musculus with 24 samples.

Results

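Reactive astrocyte genes are genes whose RNA rises in astrocytes after injury or inflammation, and 10 of them, Gfap, Vim, Serpina3n, Lcn2, Timp1, C4b, Osmr, Cd44, Steap4 and S1pr3, are described here across mouse cerebellum. The members are a fixed list of gliosis genes matched by symbol to the gene table, and all 10 of the 10 listed were among its 43430 genes and among the 15300 with enough counts to be tested. RNA came from whole cerebellum of mice of about 7 weeks, 1 mouse a library, in 4 genotype groups of 6 mice with 3 males and 3 females each (24 libraries). There are 2 control groups, Cre control and NDI1 control. A conditional knockout in the brain disables mitochondrial complex I in cKO mice, and cKO+NDI1 mice combine it with NDI1, a yeast enzyme that regenerates NAD+ from NADH. The labels name neither the deleted gene, nor the promoter that drives Cre, nor whether the NDI1 control also carries Cre.

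When the brain is injured or inflamed, astrocytes enlarge and build more intermediate filament, chiefly GFAP and vimentin. They also secrete protease inhibitors, complement and lipocalin, and show more receptors on their surface. Cytokines of the IL-6 family, oncostatin M among them, are known drivers of this state: they bind receptors that share the subunit gp130 and activate the kinases JAK1 and TYK2 and the transcription factor STAT3. In the cerebellum the main astrocytes are the Bergmann glia, which wrap Purkinje cell dendrites, and the velate astrocytes of the granule layer. None of these genes is made by astrocytes alone. Vimentin is also made by endothelium and meninges, lipocalin 2 by neutrophils, and C4 by several cell types.

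In cKO against the Cre control, 2 of the 10 genes rose and 0 fell, where 4.87% of all tested genes were called (edgeR adjusted p under 0.05; 3.06% higher and 1.81% lower). The risers were Timp1 and C4b. Gfap and Steap4 lay just outside the threshold, and the other 6 did not pass. In cKO+NDI1, 0 of the 10 passed in any comparison. Of all genes, 0% were called there against the NDI1 control, 0.209% against cKO and 1.25% against the Cre control. The groups overlapped for each of the 10 genes in each comparison of a pair of groups, where the share of all genes that did not overlap was 2.69% in cKO against the Cre control, 0.314% in cKO+NDI1 against the NDI1 control, 0.954% against cKO, 1.58% against the Cre control and 0.386% between the controls.

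Sequence just before the start of 9 of the 10 genes was read from a RefSeq table of promoters (GRCm38.p6; C4b is named only). The 250 bases upstream of the start are shown for Timp1, which rose, for Steap4, the 1 member of the 9 with a STAT motif there, and for Gfap, the most abundant member. For Gfap the RefSeq start lies inside the longer gene span that the mm10 annotation gives below, so its window is upstream of the RefSeq start alone. The same holds for Vim, Lcn2 and Osmr, whose windows were searched but are not shown. The STAT motif, TTCNNNGAA, is in capitals.
Timp1 (chrX:20869916-20870165, plus strand): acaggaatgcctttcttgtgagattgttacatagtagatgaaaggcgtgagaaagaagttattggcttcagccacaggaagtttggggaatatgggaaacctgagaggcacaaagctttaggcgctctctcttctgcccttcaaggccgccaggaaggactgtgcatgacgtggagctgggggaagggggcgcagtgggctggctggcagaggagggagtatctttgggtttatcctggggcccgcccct
Steap4 (chr5:7960222-7960471, plus strand): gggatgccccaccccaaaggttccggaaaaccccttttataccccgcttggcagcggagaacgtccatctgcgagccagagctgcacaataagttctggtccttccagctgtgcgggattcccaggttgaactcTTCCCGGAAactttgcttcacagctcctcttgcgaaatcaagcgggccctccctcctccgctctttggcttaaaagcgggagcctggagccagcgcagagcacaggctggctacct
Gfap (chr11:102897201-102897450, minus strand): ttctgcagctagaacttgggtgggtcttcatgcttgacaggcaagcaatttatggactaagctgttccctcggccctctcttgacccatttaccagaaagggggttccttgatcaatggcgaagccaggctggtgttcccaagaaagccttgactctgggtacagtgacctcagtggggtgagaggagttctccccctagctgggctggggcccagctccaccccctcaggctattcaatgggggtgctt

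Motifs were searched on both strands of these windows. The STAT match of Steap4, TTCCCGGAA, begins 116 bases before the start, and 7.02% of 32851 promoters of the same length hold the motif. The AP-1 motif TGANTCA was in 0 of the 9 members and in 6.75% of all promoters. An interferon response motif was in 0 of 9 and in 2.98%. Loose forms of the NF-kB and CArG motifs, in which only the outer G and C letters are set, were in 7 of 9 (all but Gfap and S1pr3) and 9 of 9, against 45.8% and 67.1% of all promoters. Matches of these loose forms can overlap each other. A match here is a run of letters, not a binding site.

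Totals of 7584374 to 19785264 counts were obtained per library, with cKO at 8665396 to 15901824. Levels are given as CPM, counts scaled to TMM library sizes. Ndufs4, which is the complex I gene deleted in this mouse line as known from the study though not from the labels, stood at 104 to 164 CPM in Cre controls and 67.1 to 133 in cKO. Its count takes in the whole gene, exons outside a deleted one included, so it does not check the genotype. Markers of astrocytes and Bergmann glia, summed over 12 genes, stood at 7020 to 7393 CPM in Cre controls, 6728 to 7228 in NDI1 controls, 5928 to 7039 in cKO and 6397 to 6863 in cKO+NDI1. The cKO library at 7039 was F1. All other cKO libraries, at 5928 to 6621, lay below every library of both control groups. None of the 12 was at 0 in any library, 0 were called higher and 2 lower in cKO against the Cre control (median log2 -0.10). In whole tissue, fewer cells of a type and less RNA per cell cannot be told apart. The cKO library F1 stood apart in several genes below, and several cKO differences are also given without it.

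Scaled by gene length, Gfap was the most abundant member, with group means of 71.6 to 92.6 CPM per kilobase. Vim followed at 25.8 to 28.5 CPM per kilobase. Serpina3n (1.40 to 1.96), C4b (0.936 to 1.65) and S1pr3 (0.995 to 1.32) formed a lower tier whose group means overlap. Below them came Timp1 (0.336 to 0.824), Steap4 (0.362 to 0.646) and Cd44 (0.438 to 0.483), which also overlap, and then Lcn2 (0.108 to 0.184) and Osmr (0.119 to 0.161). Counts a library differed as widely. Gfap had 3259 to 9389 counts a library, Timp1 5 to 23, and Lcn2 2 to 31. For Timp1 and Lcn2 the counting error of a single library is therefore large.

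**Figure D1:**
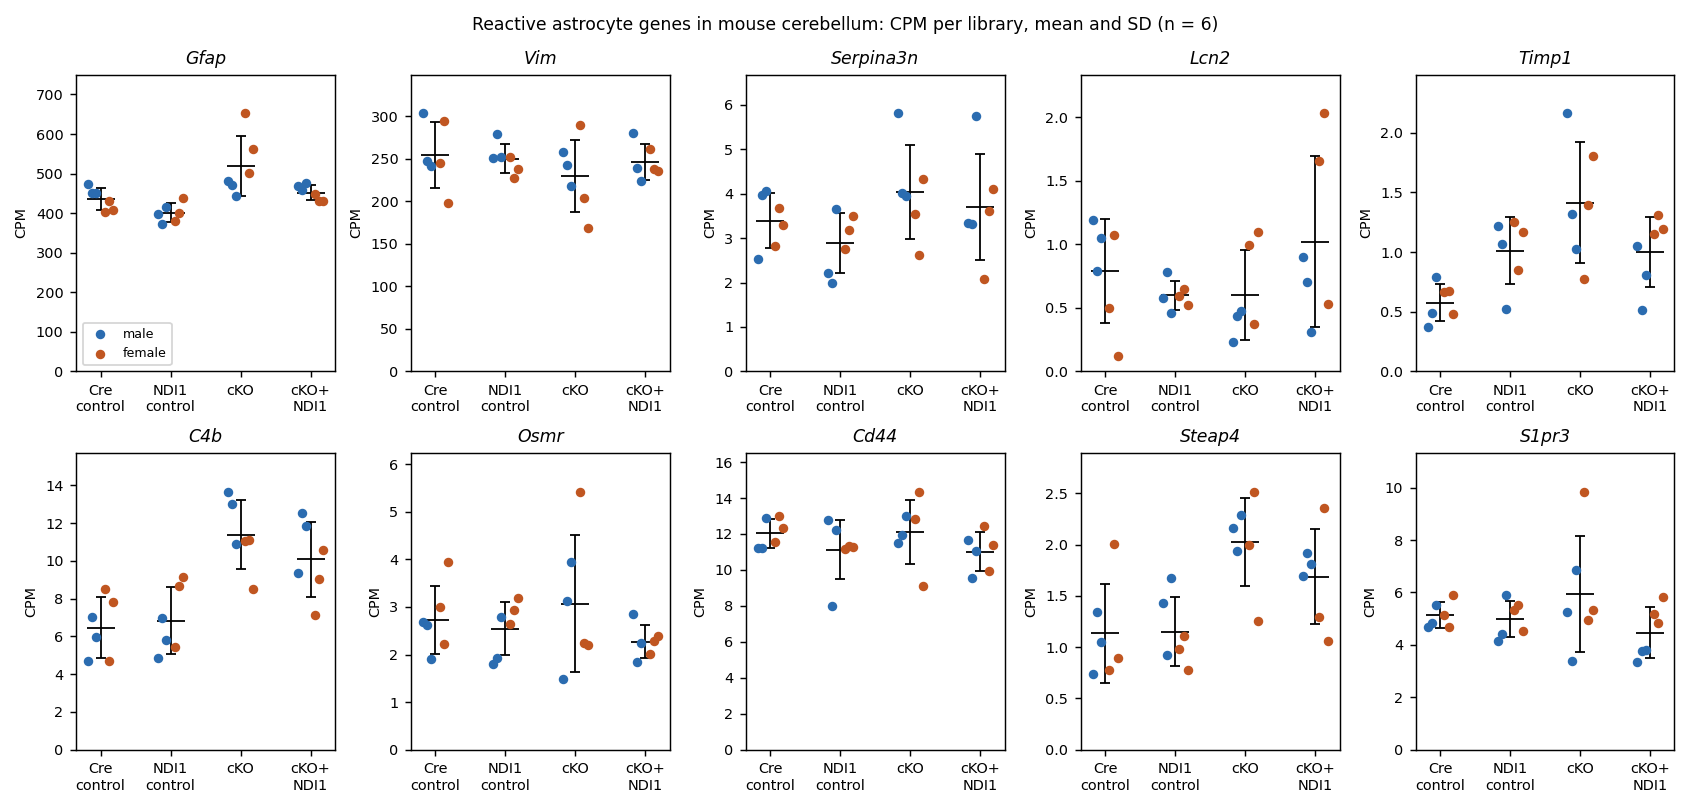
Each panel plots 1 gene in CPM for the 24 libraries by genotype group, males in blue and females in orange, with the mean and SD of 6 libraries in black. The Timp1 panel shows 5 of 6 cKO libraries above every Cre control library, and the Gfap panel shows the 3 cKO females as the 3 highest points.

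Gfap encodes the glial fibrillary acidic protein, the filament protein by which astrocytes are recognised (chromosome 11, 102887336 to 102900912, mm10). Its CPM was 402 at the lowest, 441 at the median and 474 at the highest in Cre controls. The NDI1 control gave 371, 400.1 and 438, cKO 443, 492 and 653, and cKO+NDI1 431, 453 and 475, in the same order. In cKO, 4 of 6 libraries lay above the highest Cre control library. The log2 fold change of cKO against the Cre control was 0.25 ± 0.07 (SE, as for all log2 values below), a fold of 1.19, and did not pass (adjusted p = 0.0536). By sex, the 3 cKO females stood at 502 to 653 CPM against 402 to 431 in Cre control females, whereas the 3 cKO males stood at 443 to 482 against 449.9 to 474 in Cre control males. Among females alone the log2 difference was 0.46 and passed (adjusted p = 0.0382); among males alone it was 0.02 (adjusted p = 0.929). The difference between the sexes in the knockout effect, males minus females, was -0.44 ± 0.12 and did not pass over all genes (adjusted p = 0.210). Without cKO F1, the highest library, it was -0.34 (adjusted p = 0.113), and the cKO difference over both sexes was 0.18 (adjusted p = 0.1496). The latter passed in 3 of 24 fits without 1 library, those without Cre control M1, cKO M2 or cKO M3 (adjusted p 0.0200 to 0.0461).

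The SD of Gfap CPM was 18.7 in cKO+NDI1, 24.1 in NDI1 controls and 27.6 in Cre controls, against 76.5 in cKO. The cKO+NDI1 libraries lay within 431 to 475 CPM, and 4 of 6 were above the highest NDI1 control library. The log2 difference from the NDI1 control was 0.17 ± 0.07 (adjusted p = 0.998). Against cKO it was -0.20 ± 0.07 (adjusted p = 0.405), and -0.12 without cKO F1. None of these passed over all genes.

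Vim encodes vimentin, the filament protein that pairs with GFAP in reactive cells (chromosome 2, 13573927 to 13582826). It did not pass in any comparison. Its CPM was 198, 246 and 304 (lowest, median, highest) in Cre controls, 228, 251 and 279 in NDI1 controls, and 223, 238 and 280 in cKO+NDI1. In cKO the median was 230.2 and the highest library 289, and 1 library, F3, lay below every Cre control library. The log2 difference in cKO was -0.15 ± 0.10 (adjusted p = 0.496). Among 8 tested filament genes and partners, Gfap and Vim included, 1 rose in cKO and 0 fell (median log2 0.19, all genes -0.01), where 4.87% of all genes were called. The riser was Lmna, a filament protein of the nuclear envelope, at 43.6 to 71.6 CPM in cKO and 33.0 to 43.2 in Cre controls (log2 0.39, adjusted p = 0.0272). Lmna did not pass without any 1 of Cre control M2, M3, F2 or F3 or cKO F1 (adjusted p 0.0530 to 0.0638), and its value without cKO F1 was 0.26. Nes, the filament protein of neural precursors and of reactive astrocytes, stood at 7.29 to 19.5 CPM in cKO and 8.10 to 14.1 in Cre controls (adjusted p = 0.556).

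Timp1 encodes a secreted inhibitor of matrix metalloproteinases and is among the most inducible genes of reactive astrocytes (chromosome X, 20870166 to 20874735). In the Cre control its CPM was 0.371 at the lowest, 0.576 at the median and 0.788 at the highest. In cKO it was 0.775, 1.36 and 2.16, from 7 to 23 counts a library, and 5 of 6 cKO libraries lay above the highest Cre control library. The rise was 2.43-fold (log2 1.28 ± 0.26, adjusted p = 0.00614). It passed in each of 24 fits that left out 1 library, where the log2 value lay between 1.12 and 1.42. Timp1 lies inside the span of Syn1, a synaptic gene on the opposite strand, with 0 shared exon bases. Syn1 had a median of 142 CPM in cKO and 143 in Cre controls, and the sources used here do not say whether reads were counted by strand.

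The controls of Timp1 differed too, by less than the test requires. The NDI1 control gave 0.521, 1.12 and 1.25 CPM and cKO+NDI1 0.511, 1.10 and 1.31, and in each of these groups 5 of 6 libraries lay above the highest Cre control library. The NDI1 control stood at a log2 of 0.79 ± 0.27 over the Cre control (adjusted p = 0.360). Against its own NDI1 control, cKO+NDI1 differed by -0.01 ± 0.25 (adjusted p = 0.9998), and against cKO by -0.50 ± 0.25 (adjusted p = 0.593). The interaction of knockout and NDI1 was -1.29 ± 0.36 and did not pass over all genes (adjusted p = 0.640), where 0% of 15300 genes did. With counts thinned to the smallest library, the difference from cKO was -0.19. The Cre control libraries held 5 to 12 counts of Timp1 each.

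Of the other TIMPs none passed. Timp2 stood at 82.5 to 98.5 CPM in cKO and 70.3 to 113 in Cre controls, Timp3 at 59.9 to 131 and 60.0 to 83.9, and Timp4, the astrocytic member, at 244 to 344 and 241 to 368. Of 15 tested metalloproteinase and TIMP genes, Timp1 alone was called in cKO, where 4.87% of all genes were. Of the 15, 6 had positive log2 values (median -0.04), against 48.1% of all genes.

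Vessel markers also differed between cKO and Cre controls. Summed over 7 genes, pericyte and smooth muscle markers stood at 319 to 350.0 CPM in cKO against 234 to 296 in Cre controls, with 4 of the 7 genes higher. Endothelial markers stood at 310.2 to 343 against 264 to 287, with 2 of 7 higher. Of all single genes, 3.06% were called higher in this comparison, and 2.69% did not overlap between the groups. In cKO+NDI1 the pericyte and smooth muscle sum was 309 to 356 CPM, above every Cre control library, and the endothelial sum 265 to 325, which overlaps both controls (NDI1 controls 258 to 304 and 280.3 to 320.4). No marker of either list was at 0 in any library. After group means and sex were removed, Pearson r with the pericyte and smooth muscle sum was -0.241 for Timp1, -0.408 for C4b and 0.056 for Steap4. With the endothelial sum it was -0.043, -0.11 and 0.048. The smallest permutation p of these, adjusted over the 130 relations described below, was 0.269 (C4b with the pericyte and smooth muscle sum). The part of the vessel markers in the group differences of Timp1, C4b and Steap4 was not tested.

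C4b encodes complement component 4, which is cleaved in the classical and lectin pathways and tags material for removal (chromosome 17, 34728380 to 34743882). Its CPM was 4.68, 6.49 and 8.52 (lowest, median, highest) in Cre controls and 4.88, 6.39 and 9.16 in NDI1 controls. It was 8.49, 11.1 and 13.7 in cKO and 7.13, 9.96 and 12.5 in cKO+NDI1. Thus 5 of 6 libraries of each knockout group lay above the highest Cre control library. In cKO C4b rose 1.75-fold (log2 0.81 ± 0.18, adjusted p = 0.0101), and it passed in each of the 24 fits without 1 library (log2 0.72 to 0.91). The males alone gave 1.07 and the females alone 0.52, where it did not pass (adjusted p = 0.265). The difference between sexes was 0.55 ± 0.32 (adjusted p = 0.308).

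In cKO+NDI1, C4b differed from cKO by -0.17 ± 0.17 (adjusted p = 0.844), no more than its error. Against the Cre control it was 0.63 ± 0.18, which did not pass (adjusted p = 0.0772) except without cKO+NDI1 F1 (0.73, adjusted p = 0.0386) and with DESeq2 (adjusted p = 0.0219). Against the NDI1 control it was 0.56 ± 0.18 (adjusted p = 0.760), with 4 of 6 libraries above the highest NDI1 control library. In this comparison 0% of all genes were called. Of the transcript words of 50 bases in C4b, 34.6% also occur in its neighbour C4a, so reads there could be lost or assigned to either gene. C4a stood at 0.111 to 0.570 CPM in cKO and at most 0.244 in Cre controls.

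Of 17 tested complement genes, C4b included, 13 were positive in cKO against the Cre control, against 48.1% of all genes. Their median log2 was 0.13 (all genes -0.01). Among those that did not pass were C3 and C1qa, given here in cKO and then in Cre controls. C3, the component on which the pathways meet and a marker of the A1 astrocyte state, stood at 0.443 to 1.03 and 0.394 to 1.49 CPM (log2 -0.47, adjusted p = 0.369). C1qa, made by microglia, stood at 36.3 to 47.9 and 29.0 to 45.2 (adjusted p = 0.652). Microglial markers, summed over 6 genes, ranged from 137 to 177 CPM in cKO and from 147 to 177 in Cre controls.

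Serpina3n encodes a secreted inhibitor of serine proteases and is a standard marker of reactive astrocytes (chromosome 12, 104406729 to 104414329). Its CPM was 2.53, 3.48 and 4.07 in Cre controls, 1.999, 2.98 and 3.65 in NDI1 controls, 2.61, 3.98 and 5.81 in cKO, and 2.09, 3.47 and 5.74 in cKO+NDI1. In each knockout group 2 of 6 libraries, F3 and M1 of cKO and F3 and M3 of cKO+NDI1, lay above the highest Cre control library, and the other 4 lay among or below the controls. The log2 differences were 0.24 ± 0.20 in cKO (adjusted p = 0.597) and 0.33 ± 0.20 in cKO+NDI1 against the NDI1 control (adjusted p = 0.998). It was the 1 gene of 11 listed serpin A3 genes with enough counts to test. Of its words of 50 bases, 6.9% occur in other genes of the cluster.

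Lcn2 encodes lipocalin 2, which binds siderophores and so withholds iron from bacteria (chromosome 2, 32384633 to 32388252). Its CPM was 0.119, 0.921 and 1.19 in Cre controls, 0.463, 0.583 and 0.785 in NDI1 controls, 0.228, 0.456 and 1.10 in cKO, and 0.312, 0.800 and 2.03 in cKO+NDI1. The 2 highest libraries of the 24 were cKO+NDI1 F2 and F1. In cKO the log2 difference was -0.36 ± 0.45 (adjusted p = 0.755), and in cKO+NDI1 against the NDI1 control it was 0.79 ± 0.41 (adjusted p = 0.998). Lcn2 is also a granule protein of neutrophils, and those libraries were also the highest in neutrophil markers. The sum of 6 such markers ranged from 4.76 to 25.9 CPM in cKO+NDI1, 3.08 to 11.2 in cKO, 4.59 to 11.1 in NDI1 controls and 5.26 to 16.8 in Cre controls, with Camp, Retnlg and Mpo at 0 in some libraries.

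Across the 24 libraries, after group means and sex were removed, log2 Lcn2 followed the neutrophil sum with a Pearson r of 0.726 and a Spearman rho of 0.725. The permutation p adjusted over 130 relations of the 10 genes with 13 marker lists was 0.0026 for r and 0.00845 for rho. Each r was also taken without the 2 libraries farthest from the median of the log2 marker sum after group means and sex were removed. For Lcn2 and neutrophils these were cKO+NDI1 F2 and F3, so cKO+NDI1 F1 stayed in, and r was 0.667. Lcn2 also went with Purkinje cell markers (r 0.605, rho 0.645, adjusted permutation p 0.0276 and 0.0173; r 0.60 without the farthest 2). Vim had the largest r in size of the 130, against oligodendrocyte markers (r -0.760, rho -0.788, adjusted permutation p 0.0026 and 0.0013; r -0.646 without the farthest 2). C4b and Serpina3n went against Purkinje cell markers (r -0.702 and -0.700, rho -0.670 and -0.683; adjusted permutation p 0.0052 for each r, 0.0173 and 0.0104 for rho). Without the farthest 2 libraries these were -0.666 and -0.607. Both also went against granule neuron markers by r (C4b -0.685 and Serpina3n -0.640, adjusted permutation p 0.00542 and 0.0126). By rho these were -0.677 and -0.519 (adjusted permutation p 0.0153 and 0.113), and r was -0.654 and -0.511 without the farthest 2. Steap4 went with choroid plexus markers by r (0.690, adjusted permutation p = 0.0052) but not by rho (0.583, adjusted permutation p = 0.0609), and r was 0.529 without the farthest 2. These are the 8 relations of 130 with an adjusted p under 0.05 by r. All CPM values of a library share its total, and the part of that in these relations was not tested. Nor was the part of other cell types in the Lcn2 values.

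**Figure D2:**
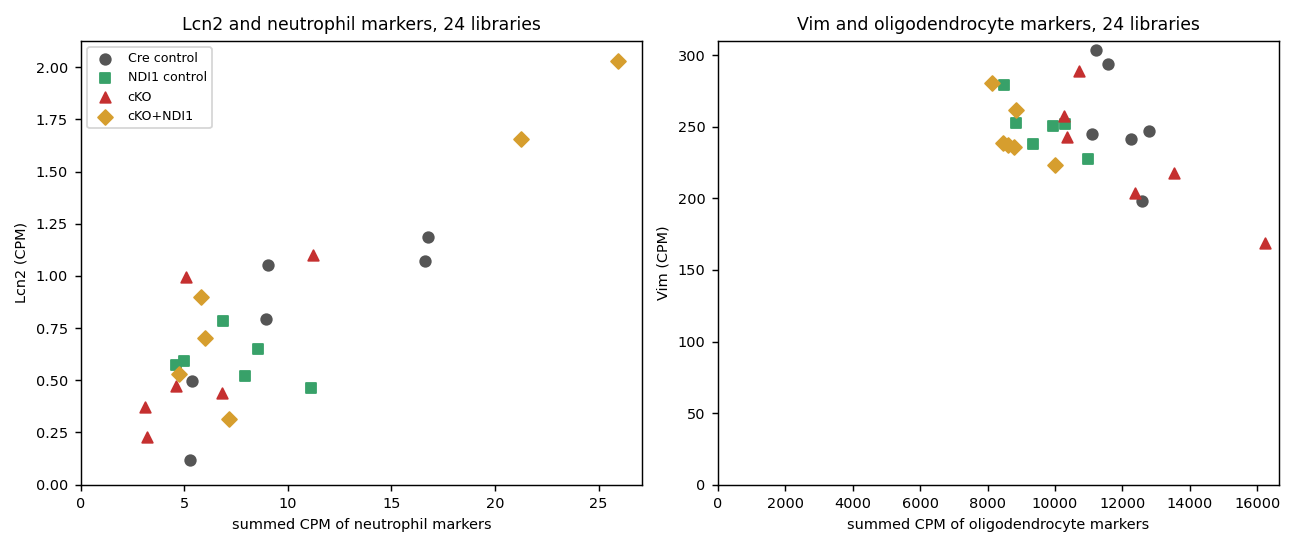
The left panel plots Lcn2 in CPM against the summed CPM of 6 neutrophil markers and the right panel plots Vim against 5 oligodendrocyte markers, 1 point a library, coloured by group. The 2 cKO+NDI1 libraries above 1.5 CPM of Lcn2 are also the 2 with the highest neutrophil sums, and Vim is lowest in the cKO library with the highest oligodendrocyte sum.

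Osmr encodes the receptor chain that binds oncostatin M together with gp130 (chromosome 15, 6813577 to 6874969). Its CPM was 1.90, 2.65 and 3.94 in Cre controls, 1.79, 2.71 and 3.18 in NDI1 controls, 1.48, 2.69 and 5.42 in cKO, and 1.85, 2.27 and 2.84 in cKO+NDI1. The cKO group was the widest, and its highest library was F1. The log2 difference in cKO was 0.18 ± 0.22 (adjusted p = 0.760) and -0.02 without F1. In cKO+NDI1 against cKO it was -0.42 ± 0.23 (adjusted p = 0.655) and -0.23 without F1.

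S1pr3 encodes a receptor for sphingosine 1-phosphate (chromosome 13, 51408618 to 51422797). It showed the same library at its top. Its CPM was 4.68, 4.98 and 5.91 in Cre controls, 4.16, 4.94 and 5.91 in NDI1 controls, 3.38, 5.29 and 9.85 in cKO, with F1 highest, and 3.34, 4.33 and 5.82 in cKO+NDI1. The cKO difference was 0.18 ± 0.17 (adjusted p = 0.628) and 0.02 without F1. In cKO+NDI1, 3 of 6 libraries, the 3 males, lay below the lowest libraries of both controls, and the difference from cKO was -0.42 ± 0.17 (adjusted p = 0.460; -0.25 without F1). Over all groups S1pr3 was lower in males at a log2 of -0.26 ± 0.12 (adjusted p = 0.291), the 1 member with an unadjusted p under 0.05 between the sexes, where 16.9% of all genes had one.

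Cd44 encodes the surface receptor of hyaluronan, a sugar chain of the extracellular matrix (chromosome 2, 102811141 to 102901665). It did not pass in any comparison. Its CPM was 11.2, 11.9 and 12.99 in Cre controls, 7.99, 11.3 and 12.8 in NDI1 controls, 9.11, 12.4 and 14.4 in cKO, and 9.58, 11.2 and 12.5 in cKO+NDI1. The cKO difference was 0.01 ± 0.11 (adjusted p = 0.975).

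Steap4 encodes a membrane metalloreductase that takes part in iron and copper uptake and is induced by inflammatory cytokines (chromosome 5, 7960472 to 7982213). Its CPM was 0.743, 0.973 and 2.01 in Cre controls, 0.780, 1.05 and 1.68 in NDI1 controls, 1.26, 2.08 and 2.52 in cKO, and 1.06, 1.75 and 2.36 in cKO+NDI1. All 6 libraries of each knockout group lay above the median of their own control, and the highest Cre control library, F2, lay within the cKO range. The cKO difference was 0.82 ± 0.24, a fold of 1.76, at an adjusted p of 0.0511. Without Cre control F2 it was 1.07 and passed (adjusted p = 0.00837), and it also passed without NDI1 control M3, cKO F3, or cKO+NDI1 F2 or F3 (adjusted p 0.0334 to 0.0488), so in 5 of 24 fits and in 6 of 11 other settings. Against its own control cKO+NDI1 differed by 0.57 ± 0.24 (adjusted p = 0.989), and against cKO by -0.22 ± 0.23 (adjusted p = 0.853).

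**Figure D3:**
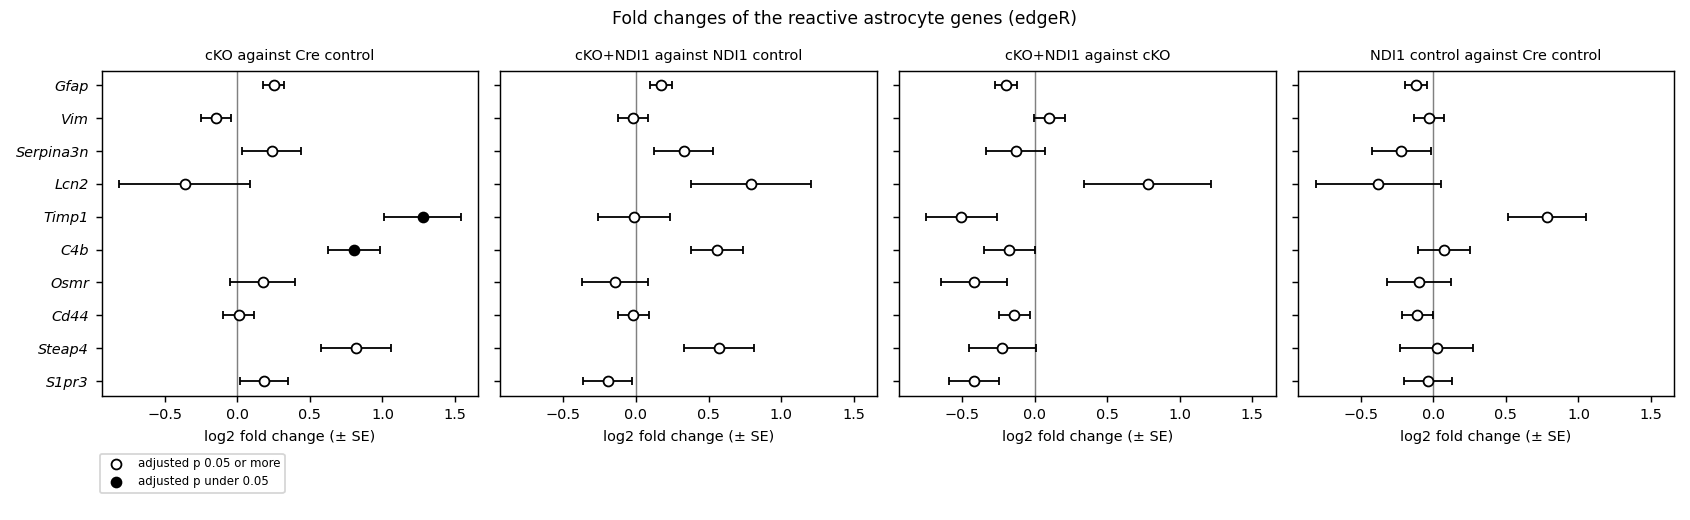
Log2 fold changes of the 10 genes with their standard errors are plotted in 4 comparisons, with filled points where the adjusted p was under 0.05. Filled points appear for Timp1 and C4b in cKO against the Cre control and in no other panel.

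Side by side, the members had a median log2 value of 0.21 in cKO against the Cre control, where 8 of 10 were positive, against 48.1% of all genes, and the median of all genes was -0.01. Of the 10 values, 3 lay within 1 SE of 0. Without cKO F1, Osmr stood at -0.02 and S1pr3 at 0.02. In cKO+NDI1 against the NDI1 control the median was 0.08 with 5 of 10 positive (all genes 46.9%), and against cKO it was -0.19 with 2 of 10 positive, Vim and Lcn2 (47.6%). In cKO+NDI1 against the Cre control it was 0.08 with 6 of 10 positive (48.8%). The NDI1 control against the Cre control gave -0.07 with 3 of 10 positive (51.4%). These comparisons share control or knockout libraries, so their directions are not independent. By edgeR, 0 of 10 passed in cKO+NDI1 against cKO, where 0.209% of all genes did. The share of all genes called was 1.25% in cKO+NDI1 against the Cre control and 0.00654% between the controls. At an unadjusted p under 0.05 there were 4 members in cKO against the Cre control (all genes 18.5%), 3 in cKO+NDI1 against the NDI1 control (4.48%), 2 against cKO (8.56%), 3 against the Cre control (13.5%), 1 between the controls (9.2%) and 1 in the interaction (5.18%), Timp1 in both of the last.

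Those 3 in cKO+NDI1 against its own control were Gfap, C4b and Steap4. In cKO against the Cre control these and Timp1 were the 4. By sex, 0 of 10 passed between males and females (0.085% of all genes) and 0 of 10 in the sex difference of the knockout effect (0%), where Gfap and Lcn2 had an unadjusted p under 0.05 (all genes 20.6%). Lcn2 differed there by -1.90 ± 0.80 (adjusted p = 0.222), in counts of 2 to 16 a library.

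**Figure D4:**
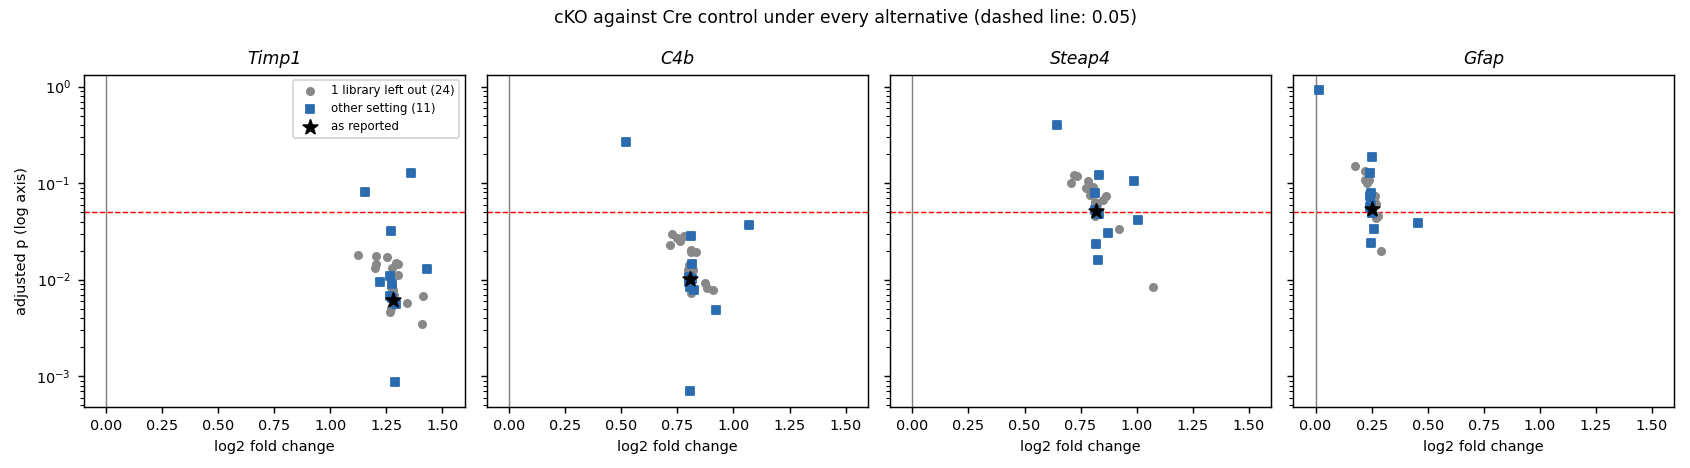
For 4 genes, the log2 fold change of cKO against the Cre control is plotted against its adjusted p on a log axis, with 24 grey points for fits without 1 library, 11 blue points for other settings and a star for the value as reported. Timp1 and C4b lie under the dashed line at 0.05 in each grey point, and Steap4 and Gfap lie on both sides of it.

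From mouse to mouse the members were weakly related. After group means and sex were removed, the 45 pairs of members had a median correlation of 0.037 over the 24 libraries, and 25 were positive. The highest was 0.396, for Vim and Lcn2, and the lowest -0.656, for Timp1 and Osmr. Serpina3n and C4b stood at 0.388, and Lcn2 and C4b at -0.608. These are descriptions over libraries that share depth and groups, and low counts lower such values.

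The pathway that induces several members was looked at through fixed lists. Beside the counts of each list in cKO against the Cre control stand the shares of all genes. There 4.87% were called by edgeR (3.06% higher and 1.81% lower) and 18.5% had an unadjusted p under 0.05. Of 9 ligands of the IL-6 family, 4 had enough counts to test, and 1 rose in cKO. It was Clcf1, a cytokine that binds the CNTF receptor, at 1.14 to 1.77 CPM against 0.371 to 1.14 in Cre controls (log2 0.83, adjusted p = 0.0481). That call is fragile: it passed in 5 of 24 fits without 1 library, those without Cre control F3, NDI1 control F3 or cKO+NDI1 M2, F1 or F2, and elsewhere the adjusted p was 0.0525 to 0.116. Of 6 tested receptors, Osmr included, 0 passed by edgeR and 3 had an unadjusted p under 0.05. Il6st, which encodes gp130, stood at 111 to 145 CPM in cKO and 124 to 176 in Cre controls (log2 -0.25, adjusted p = 0.179), and Il6ra, the IL-6 receptor, at 1.89 to 3.26 and 1.19 to 2.57 (0.51, adjusted p = 0.158).

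Among 18 genes of JAK and STAT3 signalling, 15 had positive values in cKO (median log2 0.32), against 48.1% of all genes. Of the 18, 9 had an unadjusted p under 0.05 (all genes 18.5%). With 4.87% of all genes called, 1 of the 18 rose. This was Tyk2, the kinase, at 14.6 to 16.96 CPM in cKO and 10.4 to 13.4 in Cre controls (log2 0.38, adjusted p = 0.00406), in each of 24 fits without 1 library. Tyk2 was also higher in cKO+NDI1 than in Cre controls, at 13.97 to 16.8 CPM (log2 0.38, adjusted p = 0.0162), except without Cre control M2 or cKO+NDI1 M2 (adjusted p 0.0511 and 0.0546). Stat3 stood at 41.4 to 65.8 CPM in cKO against 31.7 to 54.2 (log2 0.26, adjusted p = 0.223). Socs3, the feedback inhibitor that STAT3 induces, reached 8.19 CPM in cKO F1, where the cKO median was 2.50 and the Cre control range 1.12 to 2.75 (log2 0.79, adjusted p = 0.0925). Without F1 the value was 0.40 (adjusted p = 0.373). In cKO+NDI1 against cKO, 3 of the 18 were positive (median -0.18, all genes 47.6% positive) and 0 passed (all genes 0.209%). Against the NDI1 control 16 were positive (median 0.10, all genes 46.9% positive) and 0 passed (all genes 0%).

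Around Cd44, 1 of 16 tested hyaluronan genes rose in cKO and 1 fell, where 3.06% of all genes were called higher and 1.81% lower. Hyal2, a hyaluronidase, stood at 15.6 to 21.7 CPM against 11.03 to 15.7 in Cre controls (log2 0.48, adjusted p = 0.0259), and did not pass without Cre control M2, M3 or F1 or cKO F1 or F3 (adjusted p 0.0520 to 0.0755). Hapln4, a link protein of the nets around neurons, fell by 0.39 on the log2 scale, to 119 to 155 CPM from 158 to 188 (adjusted p = 0.00874), in each of 24 fits without 1 library. Around S1pr3, 1 of 13 tested genes rose and 1 fell, beside the same shares of all genes. Spns2, which exports sphingosine 1-phosphate, stood at 73.2 to 85.2 CPM in cKO against 62.2 to 64.2, with no overlap (2.69% of all genes had none). It rose by 0.31 on the log2 scale (adjusted p = 0.00099), in each of 24 fits. In cKO+NDI1 it stood at 69.2 to 76.1 (log2 0.20 over the Cre control, adjusted p = 0.0498), and there 16 of 24 fits without 1 library did not pass. That call held without NDI1 control M1, M2 or M3, cKO M2, M3, F1 or F3, or cKO+NDI1 F1, and elsewhere the adjusted p was 0.0512 to 0.145. Sgpp2, a phosphatase of sphingosine 1-phosphate, fell by 0.26 on the log2 scale (adjusted p = 0.0339), but not without any 1 of Cre control M2, M3, F1, F2 or F3 or cKO M1, F1, F2 or F3 (adjusted p 0.0529 to 0.0861).

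Around Steap4 and Lcn2, 0 of 14 tested iron genes rose in cKO and 1 fell, where 3.06% of all genes were called higher and 1.81% lower. Slc40a1 encodes ferroportin, the iron exporter. It stood at 4.76 to 12.96 CPM in cKO and 13.9 to 17.5 in Cre controls, with no overlap (2.69% of all genes had none). It fell by 0.62 on the log2 scale (adjusted p = 0.0365). The call was lost without any 1 of Cre control M1, M2, M3, F1 or F2 or cKO M1 or M2 (adjusted p 0.0566 to 0.0672), and in 5 of 11 other settings.

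Published sets of astrocyte reactivity (pan-reactive, A1 and A2) were also counted. Of all genes in cKO against the Cre control, 4.87% were called, 18.5% had an unadjusted p under 0.05 and 48.1% were positive. The pan-reactive set holds every member but C4b, and the A1 and A2 sets hold none. Of 13 pan-reactive genes, 2 rose in cKO and 0 fell (11 positive, median 0.24), and 4 had an unadjusted p under 0.05. The risers were Timp1 and Cxcl10, a chemokine induced by interferon. Cxcl10 stood at 0.683 to 4.10 CPM against 0.131 to 1.19 (log2 2.21 ± 0.50, adjusted p = 0.0111), and passed in each of 24 fits. Of 12 A1 genes 0 passed by edgeR, 3 had an unadjusted p under 0.05, and 11 were positive (median 0.14). Of 11 A2 genes, 3 rose and 1 fell (8 positive, median 0.26), and 8 had an unadjusted p under 0.05. Besides Clcf1 the risers were Ptgs2, a prostaglandin synthase (log2 1.41, adjusted p = 0.0355), and Emp1, a membrane protein (0.73, adjusted p = 0.0366). Both rested in part on cKO F1, which held their highest values, 7.75 and 13.9 CPM. Without it their log2 values were 0.73 and 0.49, and neither passed (adjusted p 0.183 and 0.122). Ptgs2 also did not pass without any 1 of the 6 Cre control libraries or cKO M2 (adjusted p from 0.0533), nor Emp1 without Cre control M2, M3, F1 or F3 or cKO M1 or F2 (from 0.0561). B3gnt5, a glycosyltransferase, fell by 0.23 on the log2 scale (adjusted p = 0.0212), but not without Cre control F2 or cKO F1 (adjusted p 0.0514 and 0.0530). In cKO+NDI1 against the NDI1 control and against cKO, 0 genes of each list passed by edgeR.

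For each member, the genes most like it in pattern were taken by Pearson correlation of log2 CPM over the 24 libraries after removing the sex means, among 13843 named genes. Since genotype was not removed, group differences enter these values. C4b was most like Ehd4, Map3k3 and Adam11 (r 0.835 to 0.855), Vim like Lhfp, Angptl4 and Stom (0.780 to 0.842), Serpina3n like Kif1c, Phactr4 and Rhou (0.791 to 0.823), and Steap4 like Tgfbi, Entpd2 and Bcam (0.717 to 0.828). Gfap was most like Ccdc152, Uri1 and Usp3 (0.801 to 0.803), Osmr like Slc2a3, Kdm5b and Tmcc3 (0.752 to 0.779), Timp1 like Zpr1, Dolpp1 and Tubgcp3 (0.734 to 0.765), and Lcn2 like Dok3, Pkig and Gemin8 (0.724 to 0.747). Cd44 was most like Gja1, the gap junction protein of astrocytes, with Uvrag and Pde12 (0.706 to 0.716), and S1pr3 like Kcnk3, Ddr1 and Fam167a (0.651 to 0.691). No member was among the 3 genes most like another member.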

How the data were processed

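Messenger RNA of whole cerebellum was sequenced in 24 libraries of 4 genotype groups, with polyA selection and a NEBNext Ultra kit per the labels' protocols. The submitters' processing notes list mouse build mm10 and the tools STAR, HTSeq, bcl2fastq and Trimmomatic, without versions, and strand handling is not given in the sources used here. The values the authors deposited are raw counts for each gene in each library, not normalised, with a gene length in bases that was used here for levels per kilobase. The labels supply group, sex and replicate number but no batch, and 0 columns were unused. Over 60 pairs within groups, no library was a copy of another (chi-square at least 4.67 a degree of freedom).

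Counts were fitted with edgeR 4.0.16 (limma 3.58.1, R 4.3.3): TMM, filterByExpr by group, and the robust quasi-likelihood F test in 1 model of group and sex, adjusted by Benjamini-Hochberg over 15300 genes with a threshold of 0.05. Standard errors come from the fold change and its F. The log2 CPM used a prior count of 2. The sex difference was fitted on the 8 group and sex cells. The pipeline was tested on simulated data. Permutation tests were two-sided with 100000 resamples of 24 residuals, treated as exchangeable.

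Alternatives were RLE, library size alone, no filter, DESeq2 1.42.0, limma-voom, no sex term, a replicate block, fits to the compared groups, counts thinned to the smallest total, each sex alone, and each library left out. The members and lists were chosen with earlier results of these data known. Named are the 10 members, genes of a list called in a comparison (at most 4 a list; 1 such result is not reported here), and the 3 genes most like each member; other list genes named with values that did not pass, Ndufs4, Syn1 and C4a were chosen after their values were seen.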

Additional observations from a re-analysis of the deposited data

Results flagged for a closer look

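Among 40 groups of 6 libraries (10 genes in 4 genotype groups), 1 held a library far from its neighbours by Dixon's ratio of gap to range. Cd44 in the NDI1 control stood at 7.99 CPM in replicate M2, and the next lowest library was at 11.2 CPM. The gap was 0.667 of the group's range. Chance flags about 2 of 40 such groups.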

How the results depend on the processing

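In cKO against the Cre control, 2 of the 10 genes passed as reported. The count was 4 with library size alone, 4 with DESeq2 and 4 without a sex term (Timp1, C4b, Gfap and Steap4), 1 in males only (C4b) and 1 in females only (Gfap), and 2 to 3 when each library was left out. Of all genes, 764, 1157, 702, 38 and 364 passed in these 5 settings, in this order, against 745 as reported. With limma-voom, counts thinned to the smallest total and a replicate block the count was 3, Steap4 added, where 742, 534 and 754 of all genes passed. Timp1 did not pass in males only (1.36, adjusted p = 0.128) or females only (1.16, adjusted p = 0.0810), fits with fewer libraries. In cKO+NDI1 against the Cre control the count was 0, and 1 with DESeq2 and without cKO+NDI1 F1 (C4b each time; 0 to 1 over the libraries left out). In the other comparisons it stayed at 0 in every alternative run. With the replicate block Steap4 had an adjusted p of 0.0159. The labels give the numbers no meaning, and libraries of a number were not taken as pairs. Some but not all pairs correlated: deviations from group means gave -0.298 to 0.645 (median 0.15), above 0.1 in 23 of 36 pairs. With sex also removed the range was -0.402 to 0.506 (median 0.11), above 0.1 in 19 of 36, and 8 of 24 libraries were closest to one of their own number. These values cannot tell whether libraries of a number share a batch that the labels leave out. Of 2679 values of the members under alternatives, 2656 stayed on their side of the threshold, 20 passed newly and 3 no longer passed; 96 changed sign, of which 0 had passed in either fit. Over all genes, calls in cKO against the Cre control ranged from 38 in males only to 1157 with DESeq2, against 745, and from 504 (without Cre control F2) to 914 (without cKO M3) with 1 library left out. Those in cKO+NDI1 against cKO ranged from 2 to 107 against 32, and in cKO+NDI1 against the Cre control from 2 to 511 against 191. Of 11 settings other than leaving out a library, calls of listed genes in cKO against the Cre control were lost in 1 for Hapln4, Spns2 and Cxcl10, 2 for Tyk2, 3 for Hyal2 and Lmna, 4 for Sgpp2, 5 for Slc40a1, Emp1 and B3gnt5, 6 for Clcf1 and 7 for Ptgs2; in cKO+NDI1 against the Cre control they were lost in 3 for Tyk2 and 6 for Spns2. Counts of 2 to 31 a library limit the precision of Lcn2, and of 5 to 23 that of Timp1.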
